A study of Homo sapiens with 2 samples.

Results

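GOLGA8B and HERC2P9 on chromosome 15 and BMS1P1 on chromosome 10 belong to gene families with many copies in the human genome. For each, 1 feature of a lncRNA array is described here, a stretch of 60 bases printed in 3 spots. Whether other features of the array also read these genes was not determined. These 3 features, of 77162 on the array, were chosen by name from the study's list of the 15 transcripts most raised after androgen. Their signals at 0 h and 2 h are therefore the values that selected them, and the rise is given as a description only. RNA came from LNCaP, an established line of human prostate cancer cells that depends on androgen. The cells had been starved of hormone in phenol red-free medium with serum stripped on charcoal, and its percentage differs between the labels of the samples and the methods of the study. The 0 h group was harvested before DHT (dihydrotestosterone, an androgen), and the 2 h group was harvested 2 h after 10 nM DHT. There was 1 array per condition and no vehicle array at 2 h was analysed here, so DHT, time in culture, handling of the RNA and the array itself cannot be told apart, and no difference has a replicate check or a test. The array reads RNA pooled over the culture, in which fewer cells with a transcript and less transcript per cell cannot be told apart.

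GOLGA8B and its relative GOLGA8A, on the same chromosome, encode golgins of the A8 group, coiled-coil proteins related to those that hold the Golgi apparatus together. HERC2P9 is a partial copy of HERC2, a large E3 ubiquitin ligase, and BMS1P1 is a partial copy of BMS1, a GTPase needed to build the small ribosomal subunit. Both copies are pseudogenes that are transcribed. RNA of such copies can be hard to assign, because a short feature may bind RNA of several of them.

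In the RefSeq gene table (assembly GRCh38.p14), 19 genes carry a GOLGA8 name, all on chromosome 15, of which 14 are protein-coding, 4 are transcribed pseudogenes and 1 is a pseudogene. There are 11 named HERC2 pseudogenes, 8 on chromosome 15 and 3 on chromosome 16, and 7 of the 11 are listed as transcribed. Of 21 named BMS1 pseudogenes, 10 are listed as transcribed, and the most lie on chromosome 10, with 6, and on chromosome 9, also with 6. The families of chromosome 15 lie among each other, since GOLGA8M is the second gene after HERC2P9 in that table. Names overlap too. GOLGA8B is also listed among the synonyms of GOLGA8A, and BMS1P5 among those of BMS1P1. GOLGA8B and GOLGA8A are protein-coding in RefSeq, whereas the study lists these features with its transcripts from a lncRNA array.

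The sequences decide which RNAs a feature could bind, so the 3 features and the GOLGA8A feature of the same list are shown 5′ to 3′, as the scanner files give them. Also shown are the closest relatives found on the array, which the files do not pair with a gene. Capitals in the GOLGA8B feature (oebiotech_21382) and in oebiotech_21681 mark their shared run of 23 bases. In the GOLGA8A feature (A_21_P0011370) and in oebiotech_26187 they mark the shared run of 30 bases. In the HERC2P9 feature (oebiotech_20175) they mark a run of 9 alternating T and G, and the BMS1P1 feature (A_21_P0010871) has no capitals because no run was singled out.
GOLGA8B: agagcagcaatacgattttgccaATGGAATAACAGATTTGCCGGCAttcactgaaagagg
oebiotech_21681: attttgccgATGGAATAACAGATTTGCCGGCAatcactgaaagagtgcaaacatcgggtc
GOLGA8A: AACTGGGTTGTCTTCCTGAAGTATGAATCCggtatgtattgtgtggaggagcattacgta
oebiotech_26187: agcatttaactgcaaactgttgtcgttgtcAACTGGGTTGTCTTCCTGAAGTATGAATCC
HERC2P9: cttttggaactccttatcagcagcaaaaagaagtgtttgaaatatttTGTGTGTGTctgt
BMS1P1: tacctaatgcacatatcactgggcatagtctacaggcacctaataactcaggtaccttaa

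No other feature of the array shared 30 bases in a row with the features of GOLGA8B, HERC2P9 or BMS1P1, on the same strand or on the opposite one. For comparison, 11059 features (14.3%) shared 30 bases in a row with another, not identical, feature on the same strand. The longest run shared with any other feature on the same strand was 23 bases for GOLGA8B, 15 for HERC2P9 and 14 for BMS1P1, and on the opposite strand it was 15, 15 and 14. Runs of at least 12 bases, which are too short to single out a gene, were shared on the same strand with 15 features by GOLGA8B, with 58 by HERC2P9 and with 9 by BMS1P1. None of the 4 sequences came within 12 edits of another feature over its whole length. The features also had little in common with each other, and the longest run between any pair of the 4 was the 8 bases of GOLGA8B and HERC2P9. Copies of the 3 features in the genome or in the transcripts were not analysed here.

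The nearest relative was oebiotech_21681, which could be laid over the GOLGA8B feature for 46 bases with 43 identical (93.5%). Counting positions from 1 at the 5′ end of the GOLGA8B feature, with its base first, the differences were A23G, T47A and G60T. This search for alignments with mismatches was added after the data had been seen. The relative of the GOLGA8A feature, oebiotech_26187, matched it without a mismatch over the 30 bases where they overlap, and extended it at its 5′ end.

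GOLGA8B was at background before DHT and far above it at 2 h. Its 3 spots had processed values of 11.3, 13.6 and 10.4 intensity units at 0 h, with errors given by the scanner software of 11.4, 10.5 and 10.4. The first and the last were not positive and significant against background. For such spots, here and below, the software writes a surrogate value in place of a background-subtracted signal. At 2 h the same spots had signals of 791, 814 and 735, with errors of 79.7, 81.9 and 74.2. Each spot at 2 h was therefore many times its error. Nothing is read from the likeness of signal and error at 0 h, since surrogate values take part in it. After quantile normalization the log2 signals of the spots were 3.69, 4.60 and 3.31 at 0 h and 9.15, 9.20 and 9.04 at 2 h, and the last of the 2 h spots carried an outlier flag and was left out of the mean. The means were 3.87 ± 0.66 at 0 h (SD over 3 spots of the array) and 9.17 ± 0.03 at 2 h (SD over 2 spots). None of the 0 h spots was well above background, although 1 was positive and significant against it, and all 3 were well above background at 2 h.

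Where a feature was not detected at 0 h, its level there has only an upper limit. Detection on an array meant that 0.5 or more of the spots of a feature, as a share, were positive, significant and well above background, and the limit was the lowest log2 signal of any detected feature on that array, 5.65 at 0 h. At 2 h GOLGA8B thus exceeded its 0 h level by at least 11.5-fold, or by 3.52 or more on the log2 scale. The signals as given differ by 5.31 on the log2 scale, a value that rests on spots at background and is no estimate of the fold.

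HERC2P9 had the most even spots at 0 h. The signals of the 3 spots there lay between 10.6 and 10.8 units, and at 2 h they were 516, 521 and 430. On the normalized log2 scale the 0 h spots read 3.39, 3.37 and 3.35, and the 2 h spots read 8.51, 8.52 and 8.23. None of the spots at 0 h was positive and significant against background, all 3 at 2 h were well above it, and the ranges of the 2 arrays did not overlap. The small SD at 0 h (3.37 ± 0.02, 3 spots) describes the values that the software writes in place of a signal for spots at background, not a precise level. With 8.42 ± 0.16 at 2 h (SD over 3 spots), HERC2P9 was at least 6.80-fold higher, or 2.77 or more on the log2 scale.

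BMS1P1 had the most spots with some signal before DHT. Its spots measured 16.6, 9.63 and 16.7 units at 0 h, of which 2 were positive and significant but not well above background, and 992, 916 and 961 at 2 h. The normalized log2 signals were 4.95, 3.22 and 4.97 at 0 h and 9.49, 9.37 and 9.44 at 2 h. The brightest spot before DHT was still below the lowest detected feature of that array. Means were 4.38 ± 1.0 at 0 h and 9.44 ± 0.06 at 2 h (SD over 3 spots each), so that BMS1P1 was at least 13.8-fold higher at 2 h, or 3.78 or more on the log2 scale.

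**Figure D1:**
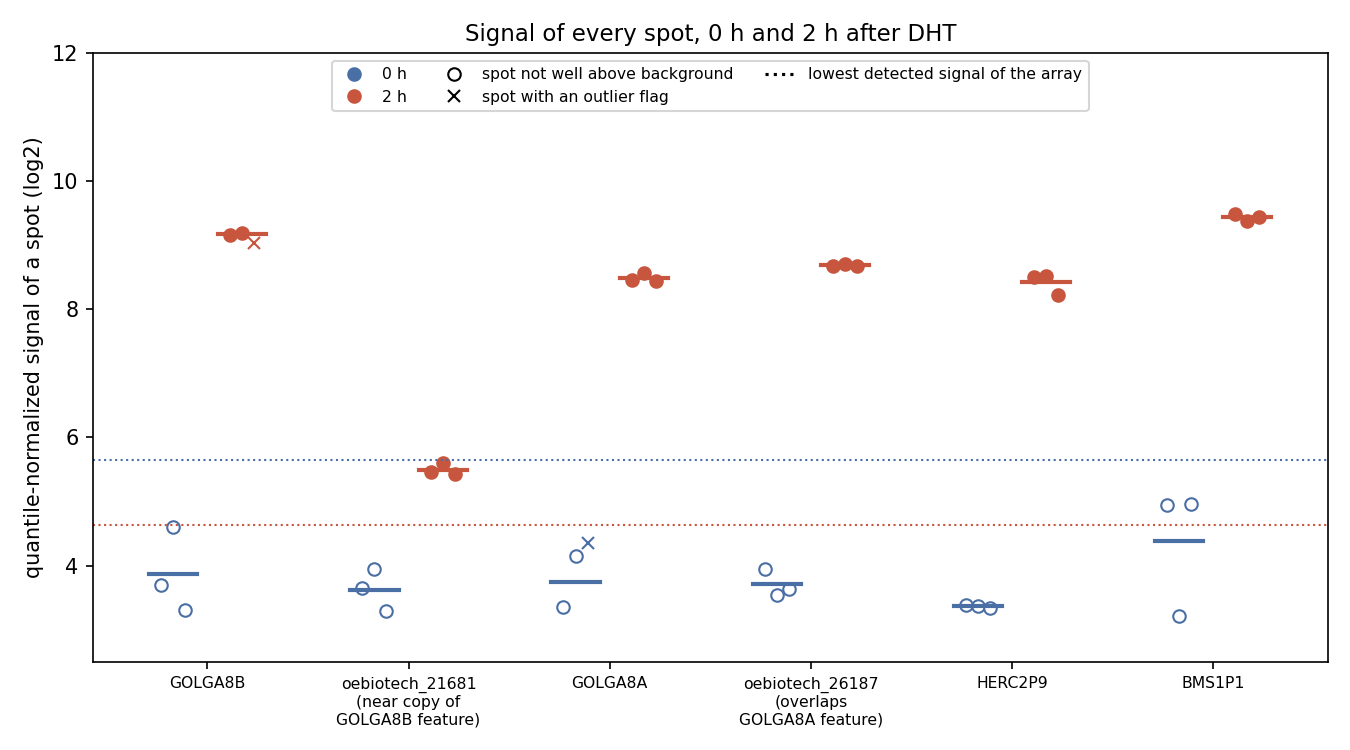
Quantile-normalized log2 signal of each spot (vertical axis) for the features of GOLGA8B, GOLGA8A, HERC2P9 and BMS1P1 and the 2 relatives by sequence (horizontal axis), at 0 h and 2 h. Open circles are spots not well above background, crosses carry an outlier flag, bars are means over unflagged spots, and dotted lines are the lowest detected signals, 5.65 at 0 h and 4.64 at 2 h. All spots at 0 h lie below the dotted line of that array, and for oebiotech_21681 the 2 h spots do too.

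All 3 features were well above background at 2 h only, as were 40% of the 32445 features detected on at least 1 array, and all 3 were at least 2-fold higher counting lower bounds, as were 14.9% of them. Since the features were selected on this difference, these shares are given as the background and nothing is read from them. The 2 arrays differed as a whole, with 38516 spots (21.9%) well above background at 0 h and 65720 (37.4%) at 2 h. Detection was limited to the 2 h array for 12989 features and to the 0 h array for 135. Of the 12989, 2539 (19.5%) were past 2-fold as a lower bound. Whether this difference between the arrays has a part in the values of GOLGA8B, HERC2P9 and BMS1P1 was not tested.

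**Figure D2:**
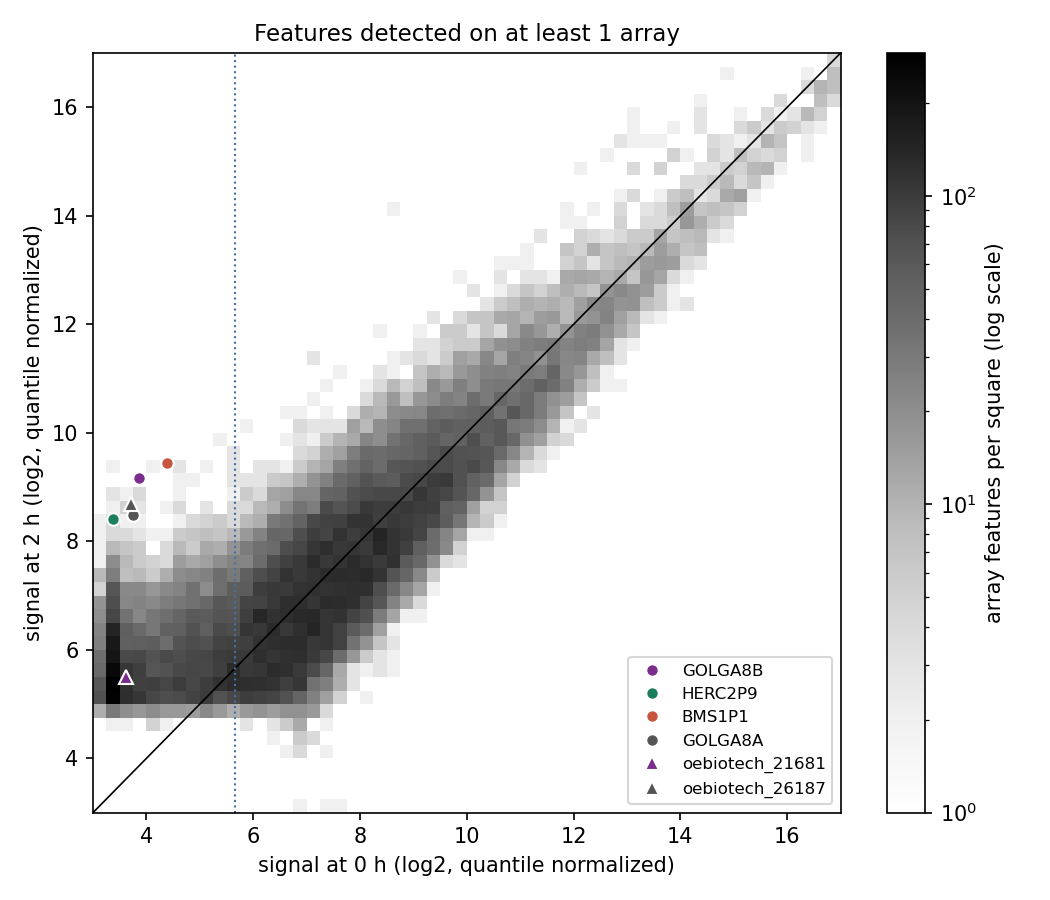
Log2 signal at 2 h (vertical axis) against 0 h (horizontal axis) for the features detected on at least 1 array, drawn as the number of features per square in grey on a log scale, with axes shown from 3 to 17. Coloured points are GOLGA8B, HERC2P9, BMS1P1 and GOLGA8A, triangles are their relatives by sequence, the diagonal marks equal signal, and the dotted line is the lowest detected signal at 0 h. The points of the 4 genes lie between 8.42 and 9.44 at 2 h, at the upper edge of the features left of the dotted line.

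Most features that appeared at 2 h only were dim, and the features of the 3 genes were not. From 5 to 5.5 on the log2 scale at 2 h, 91.1% of 3494 detected features were not detected at 0 h, and from 9 to 9.5 it was 3.12% of 1729. Around the level of GOLGA8B, taken as 0.25 on the log2 scale to either side, 58 of 1766 features (3.28%) were not detected at 0 h. For HERC2P9 it was 218 of 2425 (8.99%), and for BMS1P1 36 of 1574 (2.29%). Features of like level at 2 h thus mostly had a measurable level before DHT, with median log2 signals at 0 h of 9.05, 8.23 and 9.31 around GOLGA8B, HERC2P9 and BMS1P1. These genes were listed for such a pattern, so the shares show how it sits among all features and test nothing.

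**Figure D3:**
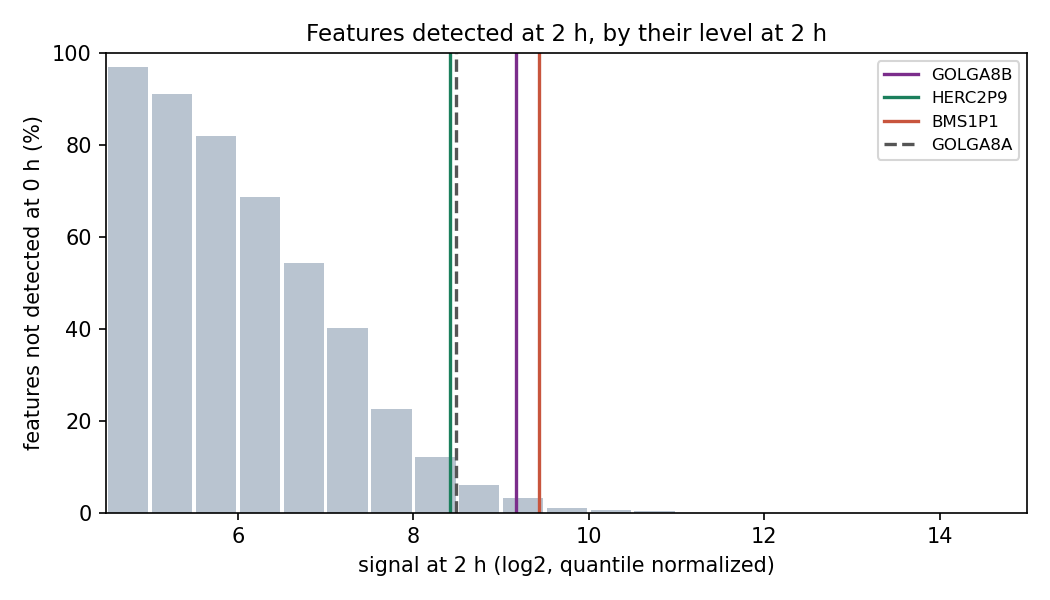
Share of the features detected at 2 h that were not detected at 0 h (vertical axis, percent), by their quantile-normalized log2 signal at 2 h (horizontal axis, bars 0.5 wide). Vertical lines give the 2 h signals of GOLGA8B, HERC2P9, BMS1P1 and GOLGA8A. The bars fall from 97.0% in the dimmest to 0 above 11, and the lines stand where they are between 12.1% and 3.12%.

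GOLGA8A, which follows BMS1P1 on the study's list and shares its name with GOLGA8B in part of the records, was also detected at 2 h only. Its spots measured 10.6, 11.6 and 11.9 units at 0 h, the last with an outlier flag, and 499, 535 and 496 at 2 h. The log2 signals were 3.35, 4.15 and 4.36 at 0 h and 8.46, 8.56 and 8.45 at 2 h. None was well above background at 0 h and all were at 2 h. The means were 3.75 ± 0.56 (SD over 2 spots) and 8.49 ± 0.06 (SD over 3 spots), and GOLGA8A was at least 7.14-fold higher at 2 h. Its feature shared no run above 5 bases with the GOLGA8B feature on the same strand, so the pair reads different stretches, and whether both bind RNA of the same gene was not tested.

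The feature that overlaps the one of GOLGA8A was detected at 2 h only too. oebiotech_26187, which the study's list of most raised transcripts does not hold, measured 11.5, 11.2 and 11.3 units at 0 h and 579, 587 and 577 at 2 h. On the log2 scale it went from 3.71 ± 0.21 to 8.69 ± 0.02 (SD over 3 spots each), with 0 spots well above background at 0 h and 3 at 2 h, a difference of at least 8.18-fold. This is a second measurement in the same RNA samples, on the same arrays and over 30 shared bases, and it is not a replicate of the treatment. For 2978 cases of a feature detected at 2 h only that shared 30 bases in a row with another, the partner was also detected at 2 h only in 2078 (69.8%) and was detected at 0 h in 449 (15.1%). Cases were counted once per partner, so a pair with both features detected at 2 h only counted from each side. Of all features of the array, counted once each, 16.8% were detected at 2 h only and 25.2% were detected at 0 h. The shares are therefore not directly comparable.

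For the near copy of the GOLGA8B feature a rise could not be measured. oebiotech_21681, with 3 mismatches in 46 bases, had signals of 11.3, 11.5 and 10.2 units at 0 h and 65.6, 73.2 and 64.8 at 2 h. Its log2 means were 3.63 ± 0.33 and 5.50 ± 0.09 (SD over 3 spots each). It was well above background at 2 h in all 3 spots and at 0 h in none, but its 2 h level was below the detection limit of the 0 h array, so no fold can be given. Its lower bound was past 2-fold if a single spot above background was enough for detection (1.09 on the log2 scale), after a shift to the spike-in spots (1.50) and with no scaling between the arrays (1.09). The features differ in sequence and cannot be compared in level, and which RNA each of them bound was not analysed here.

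Among features with a gene symbol in the tables of the study, those with the most similar pair of signals at 0 h and 2 h were sought, by the straight-line distance between their log2 values over the 2 arrays. For GOLGA8B the nearest was LINC00308 on chromosome 21, a long intergenic RNA, at a distance of 0.23, with log2 signals of 3.72 at 0 h and 8.99 at 2 h. It was followed by GAS5, a host gene of small nucleolar RNAs, at 0.57, and by BMS1P1 at 0.57. For HERC2P9 the nearest were LOC100509487 at 0.091, ST7-OT4 at 0.21 and FTX, an RNA gene of the X-inactivation centre, at 0.33. For BMS1P1 they were a feature of NEAT1, the RNA that scaffolds paraspeckles, at 0.25, then GOLGA8B at 0.57 and LINC00308 at 0.79. All of these were detected at 2 h only, so their signals at 0 h are background values and show no likeness of level before DHT. The distances and their order describe the printed values only, because features of different sequence cannot be compared in level.

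Of the 15 features listed as most raised, 11 were detected at 2 h only, and 4 of these are the features of GOLGA8B, GOLGA8A, HERC2P9 and BMS1P1. The other 7 reached log2 signals from 8.09 to 8.99 at 2 h, with lower bounds from 5.40-fold for FTX to 10.1-fold for LINC00308. Those of the 3 genes ran from 6.80-fold to 13.8-fold. Bounds reflect the signal at 2 h over a common limit at 0 h and therefore give no order of the true folds.

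The scaling between the arrays and the definition of detection set the size of the bounds. Under the 13 alternatives that give a bound, the log2 lower bound ran from 2.20 to 5.06 for GOLGA8B, from 1.51 to 4.34 for HERC2P9, from 2.39 to 5.32 for BMS1P1 and from 1.61 to 4.41 for GOLGA8A, and all of these were past 2-fold. The lowest values came with a model-based background correction (normexp with an offset of 50), which adds a constant to every signal. The same scalings moved the median over all detected features, which, counting lower bounds, was -0.10 on the log2 scale with quantile normalization and 0.10 and -0.04 when the arrays were aligned on spots above background on both, by their 75th percentile and by their median. It was -0.45 when they were aligned on the 75th percentile of all spots, 1.20 with no scaling and 1.61 when they were aligned on the spots of only 5 spike-in probes. With the signals as given, background values included, the medians under quantile normalization and these 2 alignments on shared spots were 0.16, 0.43 and 0.29, so that the first and the last turn sign.

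**Figure D4:**
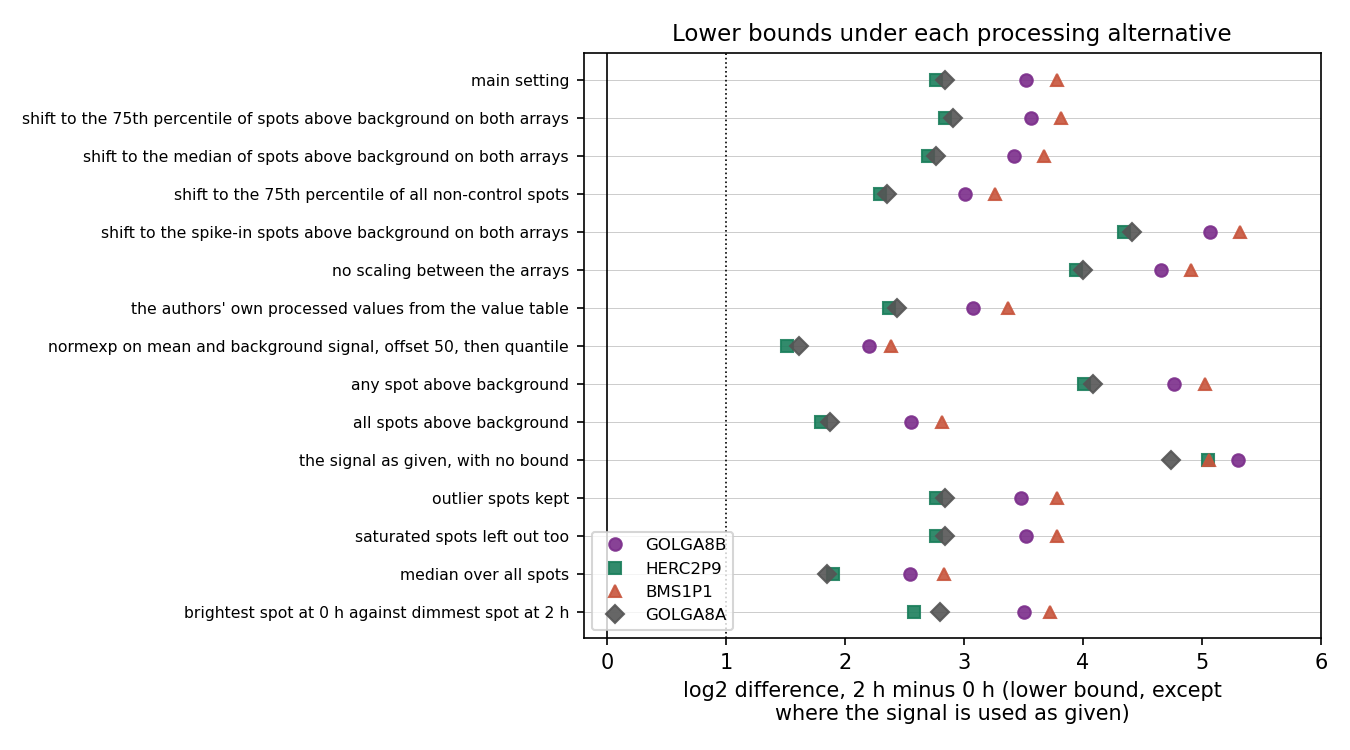
Log2 difference between 2 h and 0 h (horizontal axis) for GOLGA8B, HERC2P9, BMS1P1 and GOLGA8A under the main setting and each of 14 processing alternatives (vertical axis). Values are lower bounds except for the row that uses the signal as given, the solid line is at 0 and the dotted line at 1, which is 2-fold. Every point lies right of the dotted line, the leftmost being HERC2P9 at 1.51 with normexp.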

How the data were processed

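Total RNA of LNCaP cells at 0 h and 2 h was labelled with Cy3 and hybridized to an Agilent human lncRNA array, 1 array per condition, both on 1 slide. The authors deposited, per the file headers, the output of Feature Extraction 10.7.1.1, in which each spot has an intensity that is background-subtracted and detrended but not scaled between arrays, with surrogate values for spots at background, and has flags and a p-value against background, of which the flags were used. They also deposited log2 values per feature, quantile normalized with GeneSpring, which served as an alternative. All value columns were mapped to samples.

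Here quantile normalization, the method the study names, was applied to the processed intensities of 175556 spots other than controls, which were then taken to log2. Outlier flags removed 2628 spots at 0 h and 2528 at 2 h, no spot was saturated, and the other spots of a feature were averaged. A feature detected on 1 array only has a lower bound against the higher of its own signal and the lowest detected signal of the other array. No test could be made with 1 array per condition, which also limits the precision of all values. Quantile values were checked against those of limma 3.58.1 (R 4.3.3), and the calls were tested on simulated data. Every feature given a rise in that simulation started above the detection limit, so lower bounds for a rise were not tested. The scripts ran in Python 3.11.15 with pandas 2.3.3, numpy 2.4.6 and, for plots, matplotlib 3.10.9.

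The genes, the lists and the alternatives were chosen with earlier results of these data known. Named were the 3 members, GOLGA8A, features sharing 30 bases or within 12 edits, the features the study lists as most raised that were detected at 2 h only, and the 3 nearest named features of each. Names and chromosomes came from the tables of the study, since the files pair no feature with a gene and leave its mapping empty. For lack of names, planned lists of the golgin, HERC and BMS1 families and of LNCaP and other cell markers were not analysed here. None of 16 start-site sequences of these families matched a feature over 20 bases, and the identity of the line was not checked either.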

Additional observations from a re-analysis of the deposited data

How the results depend on the processing

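No paired analysis was possible because there was 1 array per condition. The 14 alternatives kept the direction and the 2-fold call of GOLGA8B, HERC2P9, BMS1P1 and GOLGA8A. They reprocess the same arrays on which these features were listed as most raised, so the kept call is no check of the rise. The number of features that share 30, 40 or 50 bases with the 3 genes and are past 2-fold is 0 under any setting, because no feature shares so many. At 20 bases there is 1, oebiotech_21681, past 2-fold under the 3 alternatives named with it above and by its signal as given (1.87 on the log2 scale, no bound), and not in the others. Most of the values below moved from the main setting by more than the SD over the spots of both arrays. Those that did not are named. For GOLGA8B, BMS1P1 and GOLGA8A that SD came mainly from spots at 0 h, which a bound replaces with the limit of that array. It sorts the values and does not measure the spread of a bound. Causes were not tested beyond the construction of each alternative. The values are lower bounds on the log2 scale, except for the signal as given. With GOLGA8B, HERC2P9, BMS1P1 and GOLGA8A in this order they were 5.06, 4.34, 5.32 and 4.41 after a shift to the spike-in spots, 4.66, 3.94, 4.91 and 4.0 with no scaling, 2.20, 1.51, 2.39 and 1.61 with normexp, 4.77, 4.01, 5.03 and 4.08 if a single spot above background was enough for detection, and 5.31, 5.05, 5.06 and 4.74 for the signal as given. With all spots required above background they were 2.55, 1.80, 2.81 and 1.87, and with the median over all spots 2.54, 1.90, 2.83 and 1.85. In both of these BMS1P1 stayed within its SD of 1.01. With the 75th percentile of all spots the bounds were 3.01, 2.29, 3.26 and 2.35, and with the values deposited by the authors 3.07, 2.37, 3.37 and 2.43. The brightest spot at 0 h against the dimmest at 2 h gave 3.50, 2.58, 3.72 and 2.79. HERC2P9 alone passed its SD in these, because its SD was the smallest of the 4, at 0.16. The bounds of the other genes fell too.

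The share of detected features at least 2-fold higher or lower, 26.8%, was 75.8% after the shift to the spike-in spots, 58.5% with no scaling, 11.9% with normexp and 8.59% at 3-fold. The feature oebiotech_26187, run through the same alternatives after the data had been seen, had lower bounds from 1.78 with normexp to 4.60 after the shift to the spike-in spots. Signals at background on the 0 h array limit every fold reported to a bound.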

Other observations

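Within 10 rows and columns of each of the 9 spots of GOLGA8B, HERC2P9 and BMS1P1 lay between 288 and 437 other spots, of which 16.9% to 25.6% were well above background at 0 h and 33.3% to 39.9% at 2 h, against 21.9% and 37.4% over the whole array. Their median log2 difference between 2 h and 0 h ran from -0.41 to 0.12.

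The features of the 3 genes had 43.3% (GOLGA8B), 35.0% (HERC2P9) and 41.7% (BMS1P1) G and C bases. The median was 41.7% over all features of the array and over the 12989 features detected at 2 h only, and 45.0% over the 19321 detected on both arrays. A run of 9 alternating T and G, starting with T, as in the HERC2P9 feature, stood in 156 features of the array (0.202%), of which 24 were detected at 2 h only and 62 on both arrays.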
